A study of Arabidopsis thaliana with 7 samples.

Results

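Developing Arabidopsis seeds gave 75 transcripts whose array signal was at least 2-fold higher in every one of 3 arrays than in every one of the remaining 4. Replicates 1 and 2 of wild type and replicate 1 of myb5 gave the 3 high arrays. Replicates 3 and 4 of wild type and replicates 2 and 3 of myb5 gave the 4 low arrays, so both genotypes lay on both sides. A member was a probe set naming exactly 1 gene whose lowest signal in the high arrays was at least 100 and at least 2 times its highest signal in the low arrays. Of 13513 probe sets naming 1 gene, 77 (0.57%) met these limits, and 2 of them, AT3G22640 and AT5G51210, are left out here by name. The limits were also met by 95 of 8730 probe sets with no gene name here (1.09%) and by 1 of 503 naming several genes (0.199%). The members were chosen by the deposited signals of all 7 arrays, so the contrast between high and low arrays is given below as a description with no test. The difference between genotypes within each set of arrays was not used in the choice, and it was tested.

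The samples were whole seeds dissected from siliques of plants grown in soil under continuous light. Wild type was the Columbia accession (n = 4), and the mutant carried the myb5-1 allele (n = 3) of a MYB transcription factor gene known from the seed coat. The labels give one span of embryo stages for all samples, globular to walking-stick, and no stage for any single array. One array was made per biological replicate, after 2 cycles of oligo(dT)-primed amplification, which favours polyadenylated transcripts. A single mutant allele stands for the loss of MYB5. MYB5 itself was not analysed here.

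As a seed matures, it stops building new tissue and fills its cells with reserves. Storage proteins collect in vacuoles, where vacuolar processing enzymes cut them to their final form, and oil collects in bodies coated with oleosins. Sugar for this filling leaves the seed coat through SWEET transporters, and late embryogenesis abundant (LEA) proteins accumulate last, before the seed dries. Several basic leucine zipper and B3 transcription factors are known to switch these genes on.

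Among the members, the lowest high array exceeded the highest low array by 2.01-fold to 21.2-fold, with a median of 2.93-fold. The mean of the high arrays over the mean of the low arrays ran from 2.45-fold to 88.9-fold, with a median of 5.05-fold, and it was at least 10-fold in 15 members. Over all probe sets naming 1 gene the median of this fold was 0.922. Summed over the members, the signal made up 1.5% to 1.7% of all signal in the high arrays and 0.212% to 0.356% in the low arrays. With the same limits turned round, 37 probe sets (0.274%) were higher in the low arrays. A signal from whole seeds cannot tell fewer cells of a type from less RNA per cell.

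**Figure D1:**
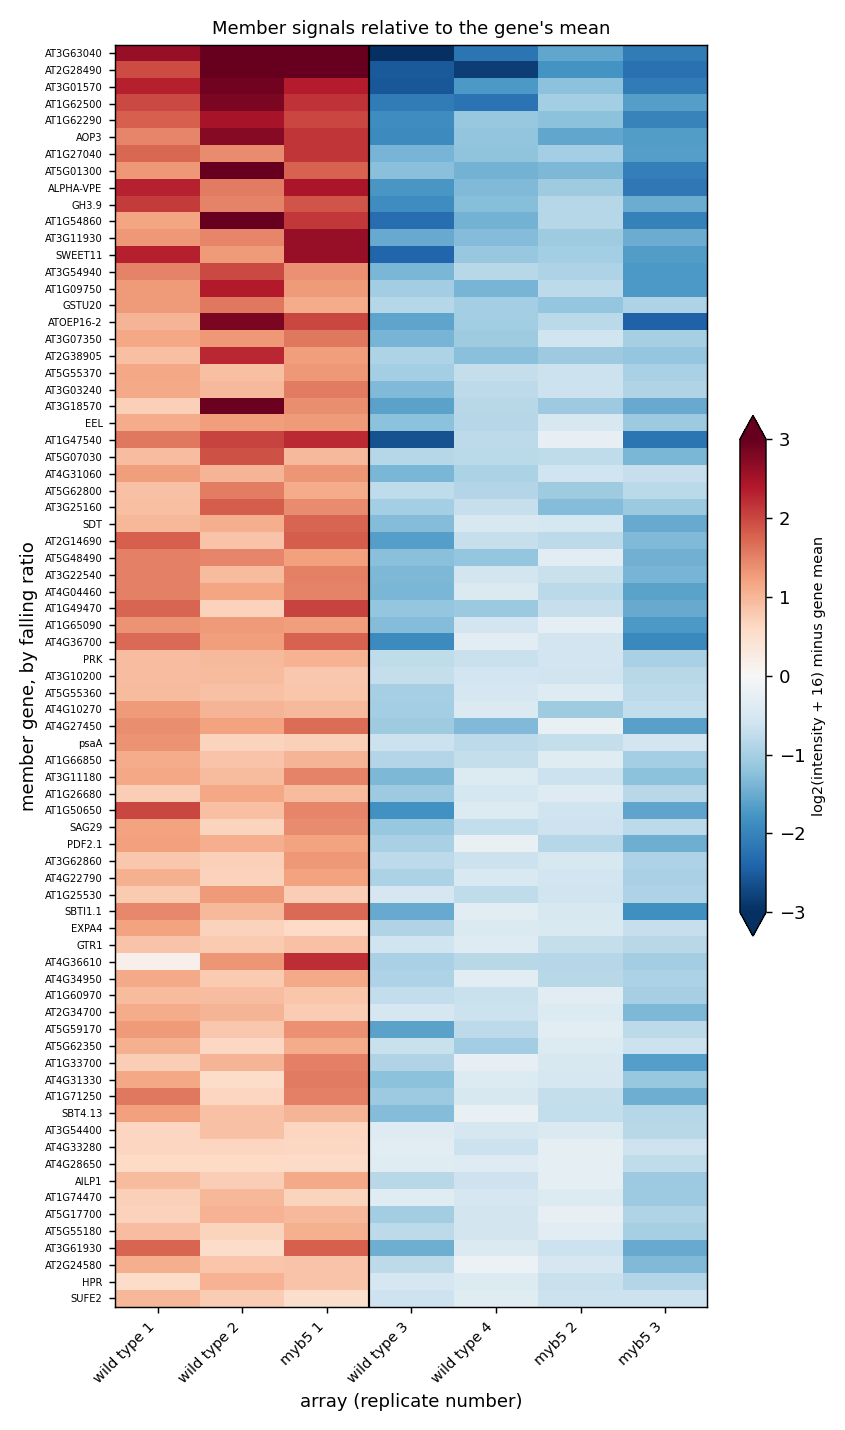
Signal of the 75 members in every array, as log2(intensity + 16) minus the gene's own mean, with genes in rows by falling ratio and the 3 high arrays left of the black line. All 75 members are above their own mean in the 3 left columns, and in many rows wild type 4 and myb5 2 are paler than wild type 3 and myb5 3.

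The edge of the set was not a natural gap. The 3 members nearest the limit were AT2G24580, HPR and SUFE2, whose ratios were 2.03, 2.02 and 2.01. Just outside lay AT3G28040 at 1.99, AT3G05500 at 1.96 and ATPC1, a subunit of the plastid ATP synthase, also at 1.96. A further 65 probe sets naming 1 gene were at least 2-fold apart but had a lowest signal under 100 in the high arrays.

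The 8 members with the highest mean signal in the high arrays included AT4G04460, with 4656, 3719 and 4599 against 524 to 1202, AT2G34700, with 2723 to 3478 against 620 to 1207, and AT5G55180, with 2288 to 3040 against 717 to 1126. Most members are known here by locus alone. The gene table gives a symbol to 19 of the 75, and a further 4 have a descriptive synonym. The other members are given by locus, with no role stated beyond the gene list that holds 4 of them.

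The steepest member, AT3G63040, had intensities of 1840, 2576 and 2728 in wild type 1, wild type 2 and myb5 1, against 20.0, 50.02, 86.9 and 54.5 in wild type 3, wild type 4, myb5 2 and myb5 3. The high arrays lay within 1.48-fold of each other, and all of them were clear of the low arrays. AT1G62500, AT1G62290, AT1G27040, AT5G01300, AT1G54860 and AT3G11930 also belonged to the 12 members with the largest ratio, which ran down to 5.52 for AT3G11930. AT1G27040 carries the synonym NPF4.5, a member of the NRT1/PTR transporter family. Its intensities were 244 to 418 in the high arrays and 15.2 to 32.1 in the low arrays, without overlap.

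Storage protein and oil body genes came from lists of genes made for this work, in which unnamed loci are placed from general knowledge and not from the gene table. Of 13 storage protein genes 5 were measured, and 2 were members. AT2G28490 had intensities of 698, 3304 and 1707 in wild type 1, wild type 2 and myb5 1, and at most 36.8 in the low arrays. It had the largest mean fold of all members, 88.9, and its high arrays were spread over 4.74-fold. AT4G36700 had 3730, 2743 and 3924 in the high arrays and 290 to 899 in the low arrays, a mean fold of 6.12. Of the other measured loci, AT2G18540 was dim throughout, at 32.3 to 83.1 against 3.48 to 18.0, and AT1G03890 overlapped between the sets. AT1G03890 reached 1325 in wild type 2 and 213 in myb5 1, but only 2.31 in wild type 1, within the 2.29 to 14.02 of the low arrays. In this list, every high array lay above every low array in 4 of 5 genes, beside 8.55% of all probe sets naming 1 gene. The 2 members and AT3G22640 met the limits, which fix this order, so only AT2G18540 adds to it.

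Of 17 oil body genes 9 were measured, 2 were members, and 7 had no overlap in the direction of the members. The limits fix this order for the 2 members and AT5G51210. The share was 8.55% of all probe sets naming 1 gene, and 16.8% of those with a lowest high array of at least 100. AT3G01570 had intensities of 1979, 2924 and 2025 in wild type 1, wild type 2 and myb5 1, and of 52.0, 104, 154 and 77.2 in wild type 3, wild type 4, myb5 2 and myb5 3. AT3G18570 had 144, 731 and 240 in the high arrays in the same order and 15.8 to 38.9 in the low arrays. Both were clear of the low arrays, but AT3G18570 varied 5.07-fold among the high arrays, the most of any member, and AT3G01570 only 1.48-fold. The locus AT3G05500, just outside the limit, had 2217 to 2879 against 645 to 1131. AT1G67360 overlapped, at 479 to 934 against 415 to 597.

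LEA and desiccation genes gave 0 members, since in all 14 measured genes of the list of 26 the lowest high array lay under 100. Of the 14, 8 had every high array above every low array and 0 the reverse, against 8.55% and 14.8% of all probe sets naming 1 gene. The low arrays of these genes lay at 0.229 to 21.1, near 0 on this scale, so no fold is given for them. AtLEA4-1 had intensities of 47.0, 334 and 94.3 in wild type 1, wild type 2 and myb5 1, and 0.836 to 12.01 in the low arrays. AT3G17520 had 14.1, 290 and 68.8 in the high arrays and 3.002 to 7.66 in the low arrays. Wild type 2 was the highest of all 7 arrays in 9 of the 14 genes. The summed signal of the list was 181 in wild type 1, 1127 in wild type 2, 425 in myb5 1 and 62.0 to 102 in the low arrays.

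**Figure D2:**
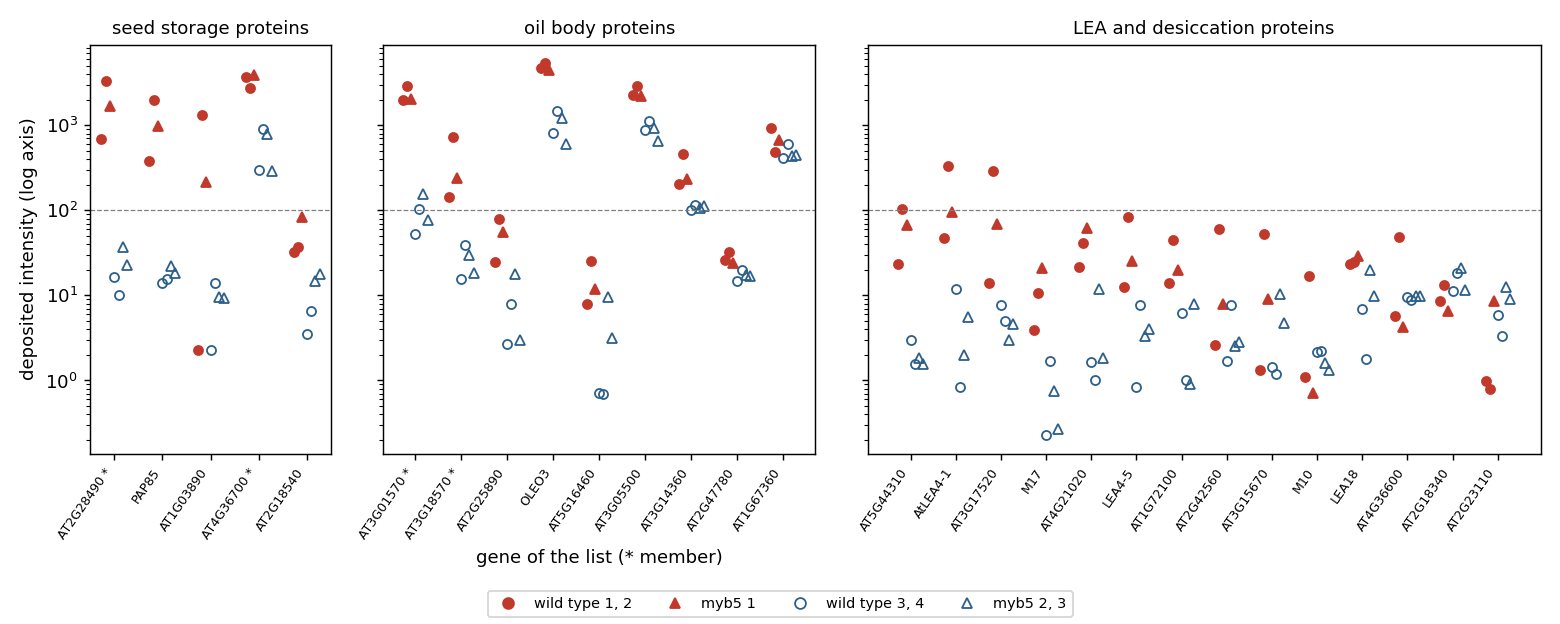
Deposited intensity on a log axis of every measured gene in the storage protein, oil body and LEA lists, with red filled marks for the 3 high arrays, blue open marks for the 4 low arrays, circles for wild type and triangles for myb5. An asterisk marks a member and the dashed line the limit of 100. All 14 LEA genes have at least 1 red mark under that line, and wild type 2 is the highest mark in 9 of them.

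Among regulators of maturation, 3 of 20 listed genes were measured and 1 was a member. EEL is a basic leucine zipper transcription factor known to bind the promoter of an LEA gene. Whether it raises or lowers LEA genes was not tested here. The intensities of EEL were 177, 199 and 202 in the high arrays, with a mean fold of 5.95. They were 22.1, 33.5, 48.3 and 25.7 in wild type 3, wild type 4, myb5 2 and myb5 3. EEL was even among the high arrays, within 1.14-fold. BZIP53, a relative from the same transcription factor class, had 754 to 864 in the high arrays and 851 to 1137 in the low arrays, with overlap. BBM, an AP2-type embryo regulator, had 36.3 to 53.5 and 39.9 to 44.6.

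Vacuolar processing enzymes, which are cysteine proteases, diverged from one another. ALPHA-VPE was the member, with 1281, 761 and 1416 in wild type 1, wild type 2 and myb5 1 against 62.0, 88.5, 109 and 43.1 in wild type 3, wild type 4, myb5 2 and myb5 3. BETA-VPE, the form known for processing seed storage proteins, missed the limit at a ratio of 1.85, with 427 to 728 against 150 to 231. DELTA-VPE, known from the inner seed coat, ran the other way without overlap, at 4425 to 5481 in the high arrays and 7693 to 8977 in the low arrays. GAMMA-VPE overlapped, at 1067 to 1933 and 1089 to 1574. These and the other families named from here on were put together after the values had been seen.

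Subtilases, serine proteases of the secretory pathway, held 2 members among 10 measured genes found by name. The limits were met by 0.57% of all probe sets naming 1 gene, but the late choice of this family keeps its count from being read as a result. SBTI1.1 had intensities of 4416, 3214 and 5315 in the high arrays and 555, 1308, 1164 and 444 in wild type 3, wild type 4, myb5 2 and myb5 3. SBT4.13 had 829, 647 and 722 in the high arrays and 132 to 296 in the low arrays. The low arrays of SBTI1.1 fell into a higher pair, wild type 4 and myb5 2, and a lower pair. SBT1.3 lay the other way, at 988 to 1059 against 1695 to 2386. So did ARA12, which is SBT1.7 and was missed by the name search, at 5074 to 5586 against 6152 to 7667.

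Sugar transporters of the SWEET family lay on both sides. Of 16 measured genes 2 were members, SWEET11 and SAG29, which is SWEET15, and both are known to carry sucrose out of seed coat and endosperm cells towards the embryo. SWEET11 had intensities of 3024, 1436 and 3632 in wild type 1, wild type 2 and myb5 1, and 98.9, 256, 282 and 172 in the low arrays, a mean fold of 13.3. SAG29 had 1413, 973 and 1627 in the high arrays and 267 to 384 in the low arrays, a mean fold of 3.98. In both genes wild type 2 was the lowest of the high arrays. Every high array lay above every low array in 3 of the 16 genes, both members among them, and below in 3. The shares of all probe sets naming 1 gene were 8.55% and 14.8%. SWEET4 was among the genes that lay below, with 68.2 to 88.0 against 111 to 196.

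Glucosinolate genes, which serve the mustard oil defence compounds that Arabidopsis stores in its seeds, held 2 members among 4 measured AOP and GTR genes. Of all probe sets naming 1 gene 0.57% met the limits. This group was put together after the values had been seen, so its count is not read as a result. AOP3 encodes a dioxygenase that modifies the side chain of these compounds, and it had 484, 1178 and 782 in wild type 1, wild type 2 and myb5 1 against 31.9 to 63.3 in the low arrays. GTR1, a transporter that loads glucosinolates into seeds, had 573, 545 and 581 against 166 to 231. Its partner GTR2 was separated in the same direction, at 61.1 to 74.5 against 26.2 to 43.5. AOP1, beside AOP3 in the same family, overlapped at 36.9 to 51.3 and 41.2 to 53.0.

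Other members with a known name spanned hormone, defence and cell wall functions. GH3.9, annotated as a putative synthetase that joins auxin to amino acids, had 776, 503 and 662 in the high arrays and 35.0 to 87.0 in the low arrays. SDT, which makes sinapoyl conjugates of spermidine, had 199, 214 and 350 against 21.7 to 61.4. PDF2.1, a plant defensin, had 1641, 1501 and 1627 against 241 to 594. None of these overlapped between the sets, and PDF2.1 was nearly level among the high arrays.

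GSTU20, a tau-class glutathione transferase, had 270, 334 and 237 in the high arrays and 37.1 to 49.3 in the low arrays. It was the only member among 11 measured genes of its class. With GSTU20 itself, 4 of the 11 had no overlap in its direction, against 8.55% of all probe sets naming 1 gene. The limits fix this order for GSTU20. EXPA4, a wall-loosening expansin, had 183, 123 and 114 against 29.9 to 47.3. ATOEP16-2, a channel-type protein of the outer plastid envelope, had 168, 632 and 352 against 14.4, 28.5, 36.0 and 1.11 in the low arrays. The AILP1 signal was 471 to 622 in the high arrays and 120 to 225 in the low arrays.

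**Figure D3:**
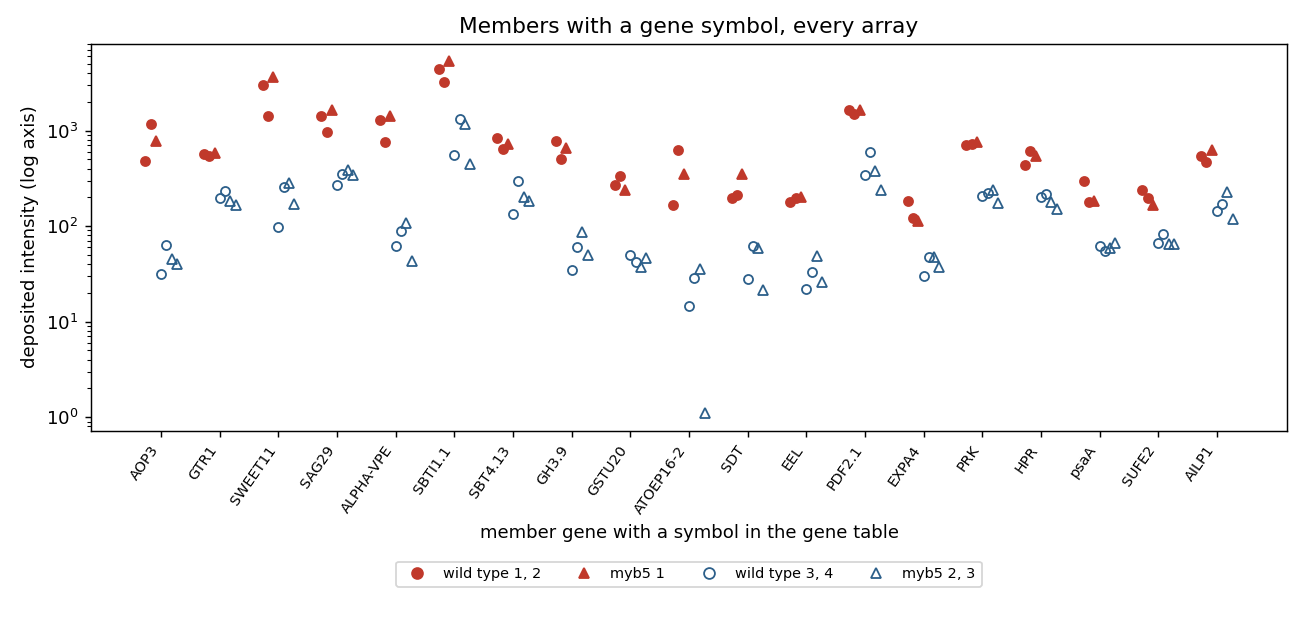
Deposited intensity on a log axis of the 19 members with a gene symbol, with 1 mark per array: red filled for the 3 high arrays, blue open for the 4 low arrays, circles for wild type and triangles for myb5. No red mark lies below a blue one within a gene, and ATOEP16-2 has one blue mark, myb5 3, at 1.11.

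Members of photosynthesis and plastid metabolism, picked out by name after the values had been seen, included 4 with mean folds of 2.61 to 3.46. Other measured genes of this kind in the nucleus were not counted, so no share stands beside these 4. PRK, the phosphoribulokinase of the Calvin cycle, had 700, 720 and 756 in the high arrays and 175 to 236 in the low arrays, a mean fold of 3.46. HPR, the hydroxypyruvate reductase of photorespiration, had 436, 614 and 540 against 151 to 216, a mean fold of 2.84. AT1G74470, annotated as a geranylgeranyl reductase, an enzyme that supplies the chlorophyll side chain, had 2104 to 2618 against 610 to 1013, a mean fold of 2.61. SUFE2, which activates sulfur transfer for iron-sulfur clusters in plastids, had 167 to 240 against 65.0 to 83.4. In all 4 genes the high arrays lay within 1.5-fold of each other.

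One member, psaA, is encoded in the plastid itself and specifies a core protein of photosystem I. It had 295, 180 and 185 in the high arrays and 55.3 to 65.8 in the low arrays, a ratio of 2.74. Of 69 plastid-encoded genes measured, 15, psaA among them, had every high array above every low array and 3 the reverse. The shares of all probe sets naming 1 gene were 8.55% and 14.8%. Among those with a lowest high array of at least 100, the share with every high array above was 16.8%. The median mean fold of the 69 genes was 1.102. psbA came nearest to the limit at 1.905, with 829 to 1358 against 402 to 435. psaB, which encodes the partner protein of psaA, overlapped at 6318 to 7388 and 4904 to 7133. Most plastid transcripts lack long poly(A) tails, and oligo(dT) priming captures them poorly.

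The high arrays were not alike, and members differed in where wild type 2 lay. The same count was not made for wild type 1 or myb5 1. Wild type 2 was at least 1.5 times the geometric mean of wild type 1 and myb5 1 in 11 members (14.7%), and at most that mean divided by 1.5 in another 11 (14.7%). Among 3726 probe sets naming 1 gene that were no members but had a lowest signal of at least 100 in the high arrays, the shares were 2.15% and 5.10%. The genes with wild type 2 high included AT3G18570, AT2G28490, AT1G54860, AT5G01300, ATOEP16-2, AOP3 and AT1G62500. The genes with wild type 2 low included SWEET11, ALPHA-VPE, SAG29, SBTI1.1 and AT2G14690, which bears the synonym ATXYN4.

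At the level end, AT4G33280 had 144, 143 and 142 in the high arrays, within 1.01-fold, and AT4G28650, synonym PXL2, a receptor kinase relative, had 105, 106 and 104. myb5 1 was the highest of the 3 in 33 of the 75 members, wild type 2 in 24 and wild type 1 in 18. In the 3726 other probe sets the shares were 30.3% for myb5 1, 35.5% for wild type 2 and 34.3% for wild type 1. myb5 1 is a single array, so its more frequent top place among the members is not read as a genotype effect.

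**Figure D4:**
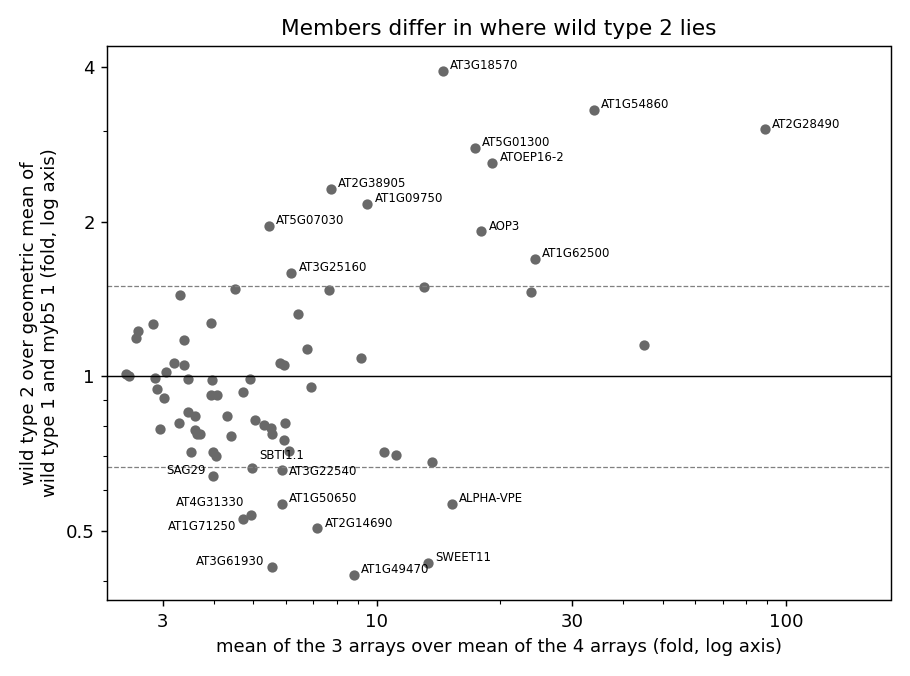
Each point is 1 of the 75 members, with the mean of the high arrays over the mean of the low arrays on the horizontal log axis and wild type 2 over the geometric mean of wild type 1 and myb5 1 on the vertical log axis. Wild type 2 enters both axes, so no relation between them is read. Dashed lines mark 1.5-fold in either direction; 11 members lie above and 11 below, and AT2G28490, at a fold of 88.9, is the rightmost point.

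The low arrays were graded too, again across genotype. Wild type 4 and myb5 2 both exceeded both wild type 3 and myb5 3 in 51 of 75 members (68.0%), and the reverse held in 3 (4.0%). In the 3726 other probe sets the shares were 16.9% and 18.2%. Of the 8 members with the highest mean signal in the high arrays, AT1G47540 had the widest gap between these pairs, with 397 in wild type 4 and 585 in myb5 2 against 101 in wild type 3 and 141 in myb5 3. AT4G36700 followed with 899 and 781 against 294 and 290. GSTU20, AT2G38905 and psaA were among those without this order.

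Neighbouring genes were taken from the order of the gene table. Of 72 genes measured next to a member, 2 were members, the adjacent pair AT5G55360 and AT5G55370. AT5G55360 had 109 to 120 in the high arrays and 18.9 to 37.5 in the low arrays, and AT5G55370 had 128 to 175 against 22.2 to 33.3. Adjacent genes can share sequence, and cross-hybridization between the pair was not tested. The neighbours that were no members had a median mean fold of 0.965. Of the 72, 11 had every high array above every low array, beside 8.55% of all probe sets naming 1 gene. These 11 include the 2 members, for which the limits fix this order.

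Seed coat markers were not among the members and several lay lower in the high arrays. Of 11 seed coat tannin genes 3 were measured, and their summed signal was 4459 to 5333 in the high arrays and 8804 to 12393 in the low arrays, with DFR and BAN lower in every high array, as were 14.8% of all probe sets naming 1 gene. Of 14 seed coat mucilage genes 4 were measured, with sums of 11342 to 11572 and 13682 to 16171, and 2 of the 4, ARA12 and AT5G49180, were lower in every high array. These 2 carry most of that sum, and the others overlapped, AT5G04160 at 609 to 994 against 466 to 800.1 and AT3G50990 at 729 to 900.3 against 260.2 to 1026. The fruit wall marker ALC, the 1 measured of 5, had 49.3 to 70.9 and 78.1 to 120. The endosperm markers AGL62 and IKU2, 2 of 11, were near 0 everywhere at 0.262 to 17.8, and CLV3, the 1 measured of 13 embryo meristem and epidermis genes, lay at 1.17 to 7.54. The part of these tissues in the member signals was not tested.

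RNA quality measures differed along the arrays only in part. The arrays carry 6 control pairs that set the signal at a transcript's 5' end over that at its 3' end. For 1 pair, from GAPDH, this ratio did not overlap, at 0.156 to 0.208 in the high arrays and 0.0809 to 0.0934 in the low arrays. The other 5 pairs overlapped, among them a second GAPDH pair at 0.495 to 0.575 in the high arrays and 0.504 to 0.632 in the low arrays. The listed reference genes AT4G34270 and AT2G28390, 2 of 5, had summed signals of 346 to 369 in the high arrays and 382 to 428 in the low arrays. Each gene alone overlapped between the sets. AT4G34270 had 199 to 235 in the high arrays and 221 to 237 in the low arrays, and AT2G28390 had 131 to 147 and 144 to 192. The part of RNA quality in the member signals was not tested, and the labels give no batch.

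The genotype comparison asked which transcripts differ between myb5 and wild type, and none of the members did at the threshold. The fit held a term for the 3 high arrays, so that myb5 1 was set against wild type 1 and 2, and myb5 2 and 3 against wild type 3 and 4. Of the 75 members 0 passed an adjusted p of 0.05 in limma, against 1 of 22746 probe sets in all (0.0044%). At an unadjusted p under 0.05 there were 3 members (4.0%), against 1249 probe sets (5.49%). All 3 were higher in myb5, beside 2.86% of all probe sets higher and 2.63% lower at that limit. The median difference of the members, myb5 minus wild type, was 0.029 on the log2(intensity + 16) scale, beside -0.0037 over all probe sets, with 41 members above 0 and 34 below.

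The 3 members with the highest estimates were AT3G63040, SWEET11 and AT3G11930. AT3G63040 differed by 0.61 (SE 0.24, limma adjusted p = 0.91). It was higher in myb5 1 than in both wild-type high arrays and higher in myb5 2 and 3 than in both wild-type low arrays. SWEET11 differed by 0.60 (SE 0.39, limma adjusted p = 0.92), while its wild-type high arrays alone differed by 3024 to 1436. AT3G11930 differed by 0.57 (SE 0.25, limma adjusted p = 0.91), from 2549 in myb5 1 against 1017 and 1150 in wild type 1 and 2. At the other end AT5G01300 had -0.39, AT5G07030 -0.32 and PDF2.1 -0.30, with limma adjusted p values of 0.95, 0.94 and 0.94.

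In 4 members, AT3G63040, AT3G07350, AT4G31060 and AT5G62350, myb5 lay above wild type without overlap in both sets, and in 1, SUFE2, below. The share of all probe sets with such an order was not counted, so these counts are not read as a genotype effect. SUFE2 had 167 in myb5 1 against 240 and 199, and 65.5 and 65.0 in myb5 2 and 3 against 66.6 and 83.4, a log2 difference of -0.27 (limma adjusted p = 0.91). AT3G07350, chosen after its values were seen, had 299 against 219 and 244, and 53.2 and 36.5 against 23.7 and 33.9. The median half-width of the 95% interval was 0.57 for the members and 0.35 for all probe sets. For 57 of the 75 members the whole interval lay between -1 and 1. The other 18 intervals reached beyond 1 in at least one direction, so a difference of that size is not excluded for them.

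With genotype as the only term, 71 of the 75 members lay below 0, with a median of -0.35, and again 0 passed in limma, with 0 at an unadjusted p under 0.05, beside 1.8% of all probe sets higher and 1.66% lower at that limit. The choice of members fixes part of this shift, since 2 of 4 wild-type arrays but 1 of 3 myb5 arrays are high ones. SWEET11 shows it: the estimate was -0.026 without the term and 0.60 with it.

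**Figure D5:**
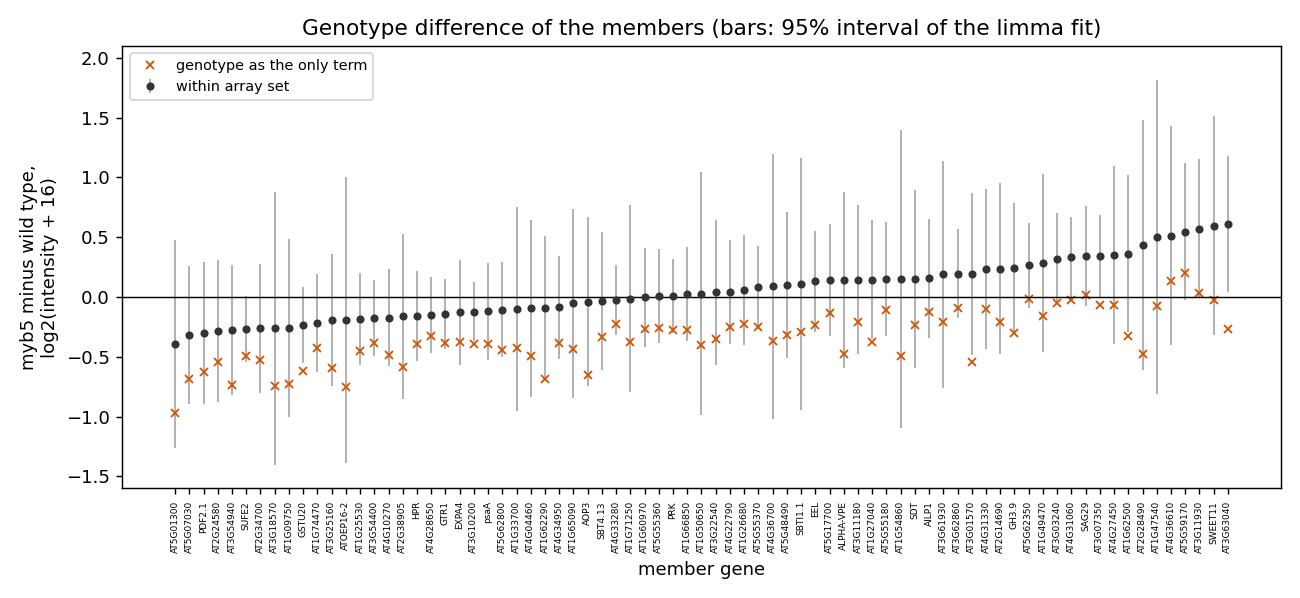
Difference between myb5 and wild type for each of the 75 members on the log2(intensity + 16) scale; black points with bars give the limma estimate within the sets of arrays and its 95% interval, and orange crosses give the estimate with genotype as the only term. Crosses lie below 0 for 71 members, while the black points lie on both sides of 0, 41 above and 34 below.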

How the data were processed

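The authors deposited intensities, on a linear scale, for each probe set on each of 7 arrays; how they were computed is not stated in the labels. These intensities had the same trimmed mean of 150.01 in every array after 2% of the probe sets were dropped at each end, so each array had been scaled before deposit, which leaves differences that depend on the probe set. Arrays correlated at 0.974 to 0.985 within the 2 sets of arrays and at 0.932 to 0.963 between them, across probe sets. The number of arrays limits the precision of every value.

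Gene names came from the array's annotation and a RefSeq gene table: 13513 probe sets name 1 gene (13436 found in the table), 503 several, and 8730 are unnamed here. Signals of different probe sets are not on one scale, and members were ranked by signal only to choose which to name. For the genotype test the 22746 probe sets other than 64 controls were turned into log2(intensity + 16), quantile normalized and fitted with limma 3.58.1 in R 4.3.3 (lmFit, eBayes), with genotype and a term for the 3 high arrays, and with Benjamini-Hochberg adjustment over all probe sets at 0.05. On simulated data for 22746 probe sets this fit recovered 42 of 67 changes of 1, 61 of 67 of 2 and 66 of 66 of 4 on the log2 scale, with 11 false calls. The simulated noise was drawn from the residual SDs of all probe sets, with a median of 0.200. The members had a median residual SD of 0.387, so these rates do not hold for the members.

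Means over high and low arrays are plain averages of deposited intensities. Text names were taken by rule: the 12 members of largest ratio, the 8 of highest signal, those in 15 lists of 201 genes (48 measured), the 3 on each side of the limit, the 3 highest and 3 lowest estimates by genotype, up to 3 per product family, and the 2 most and 2 least even among the high arrays; other named members were chosen after their values were seen. The members, the lists and the array term were chosen with earlier results of these data known. Promoter and protein sequences were not used here, so the planned motif search was not run. Same-numbered replicates of the genotypes had correlations of their deviations from the genotype mean of 0.63, -0.30 and 0.55 for replicates 1, 2 and 3. Replicate 1 was high in both genotypes, replicate 3 was low in both, and replicate 2 was high only in wild type. This split would by itself give these signs, so pairing by replicate number was not settled by these values. Alternatives were other normalizations, pseudocounts, a filter on dim probe sets, a replicate block, other limma settings, other limits of the rule and leaving out each array.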

Additional observations from a re-analysis of the deposited data

How the results depend on the processing

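The count of members moved with its limits. It was 36 at a ratio of at least 3 and 149 at a ratio of at least 1.5, and leaving out each array gave 75 to 113, the highest without wild-type replicate 2, which was the lowest high array in 33 members. All 75 stayed in the set in each fit without an array, which the rule fixes. On quantile-normalized signals 77 probe sets met the limits, 73 of them members. In the genotype comparison 0 members were called in every alternative run. Over all probe sets limma called 1, with 2 after centring on the array median, 3 on the deposited intensities as they are, 3 with trend and robust settings, 4 without the dimmest 30%, 0 in the 4 low arrays alone and 0 with a replicate block, with or without the array term; leaving out each array gave 1 to 2, the higher count without myb5 replicate 3. The median difference of the members was -0.0010 with a replicate block and the array term, and -0.58 with a replicate block without it; leaving out each array gave -0.09 to 0.25. Without the array term some estimates changed sign, which follows from the uneven genotypes in the high arrays. With genotype as the only term AT3G63040 was at -0.26 and SWEET11 at -0.026, and with a replicate block without the array term AT3G63040 was at -1.02, AT3G11930 at -0.40 and SWEET11 at -0.42. The planned search of promoters could not be run. In 7 members at least 1 low array lay under the added constant of 16, so their folds rest on dim signals.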

Other observations

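Among probe sets just under the signal limit, AT2G34315 had intensities of 116, 97.2 and 191 in wild type 1, wild type 2 and myb5 1 and 14.7 to 32.03 in the low arrays. AT5G55620 had 86.0, 153 and 105 in the high arrays and 17.3 to 24.3 in the low arrays. AT1G62510, next to the member AT1G62500, was also at least 2-fold apart, at a ratio of 2.05.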
